A study of Mus musculus with 8 samples.

Results

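The hypoxia-inducible factors (HIFs) and the oxygen sensors that control them were followed in left ventricles (LVs) of mice infused with angiotensin II (angII). They comprise 10 genes, chosen by name among the 46040 genes of the count table. The choice was made with earlier results of these data known. Each of the 10 genes was found in 1 row. They are the α subunit genes *Hif1a*, *Epas1* and *Hif3a*, the β subunit gene *Arnt*, the hydroxylase genes *Egln1*, *Egln2*, *Egln3* and *Hif1an*, the ubiquitin ligase gene *Vhl* and the HIF target *Bnip3*. All 10 passed the filter on low counts (in 2 libraries or more, a CPM of 1 or above, CPM being the count scaled to the size of the library).

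RNA of the LV was sequenced in 8 libraries on day 14 of angII infusion at 0.1 mg/kg/h, which overloads the heart with pressure, in male C57BL/6 mice of 5 to 7 months. The mice lacked the intracellular tyrosine kinase (TK) domain of VEGFR-1, the receptor encoded by *Flt1*, in every cell type (VEGFR1_TK -/-), or were wildtype littermates. Both groups received angII, no library without angII was analysed here, and the hearts came from mice that survived the infusion. The labels contradict each other: for each of the 8 libraries, tag and library name state one genotype, whereas the title states the other. Grouping followed the tags and library names, with 4 libraries in each group, named wildtype-tagged and TK-/- tagged in the following. Every direction given here is TK-/- tagged against wildtype-tagged and is the opposite if the titles are right.

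Between 11449137 and 16239670 counts per library fell on genes. Libraries of the same group differed from each other beyond counting noise in each of the 12 pairs (chi-square per degree of freedom 7.17 to 54.2), and each was used as 1 replicate. The labels do not say that each library came from a separate mouse, so p-values measure the spread between these libraries. Wildtype-tagged replicate 3 had the most counts and the lowest scaling factor (0.917), and it held the highest or lowest value of all 8 libraries in 6 of the 10 genes, the highest in *Epas1* and *Egln2* and the lowest in *Egln3*, *Bnip3*, *Hif1an* and *Vhl*. For several results that rest on it, the value without it is also given. *Flt1* itself lay between 56.9 and 84.3 normalised CPM in the wildtype-tagged and between 144 and 169.6 in the TK-/- tagged libraries. Its count covers the whole gene and does not check which libraries lack the TK domain. Defining markers of cardiomyocytes were abundant, with 69210 to 109200 normalised CPM in sum over 8 genes. In comparison, 4 adipocyte markers summed to at most 0.218, with no count of *Plin1* and *Lep*, and 3 atrial markers to at most 5.90.

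HIFs are pairs of an oxygen-labile α subunit and the stable β subunit ARNT. With oxygen present, the prolyl hydroxylases EGLN1, EGLN2 and EGLN3 (PHD2, PHD1 and PHD3) modify the α subunits, VHL binds the modified form, and the protein is degraded. HIF1AN, or FIH, hydroxylates an asparagine and blocks coactivators. When oxygen falls, the α subunits accumulate and switch on genes of glycolysis, vessel growth and mitophagy, among them *Egln3*, *Egln1* and *Bnip3* themselves. The control thus acts mainly on protein, which was not measured in these data, and an mRNA level does not give the activity of the pathway.

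Levels of different genes were compared as normalised CPM per kb of exon, the union of all exons of a gene. On this scale, *Egln1* was the most abundant of the 10 genes with a mean of 156 over the 8 libraries, followed by *Epas1* (104), *Bnip3* (77.2), *Egln3* (45.7) and *Egln2* (36.2). A second tier followed with *Hif1a* (10.2), *Hif1an* (7.89), *Arnt* (6.64) and *Vhl* (4.30), and *Hif3a* was last at 0.250. Between the tiers, the lowest library of *Egln2* (27.0) was above the highest of *Hif1a* (12.5). Within the first tier every neighbouring pair had overlapping ranges, and *Egln1* was above *Epas1* in 7, *Epas1* above *Bnip3* in 6 and *Egln3* above *Egln2* in 6 of 8 libraries. *Hif1a* overlapped with *Hif1an*, and *Hif1an* with *Arnt*, although *Hif1an* was above *Arnt* in 8 of 8 libraries. The ranges of *Hif1a* and *Arnt* did not overlap, and *Arnt*, *Vhl* and *Hif3a* were separated from each other in every library. Exons that the LV does not use lengthen the union and lower a value, so small gaps in this order carry little weight.

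**Figure D1:**
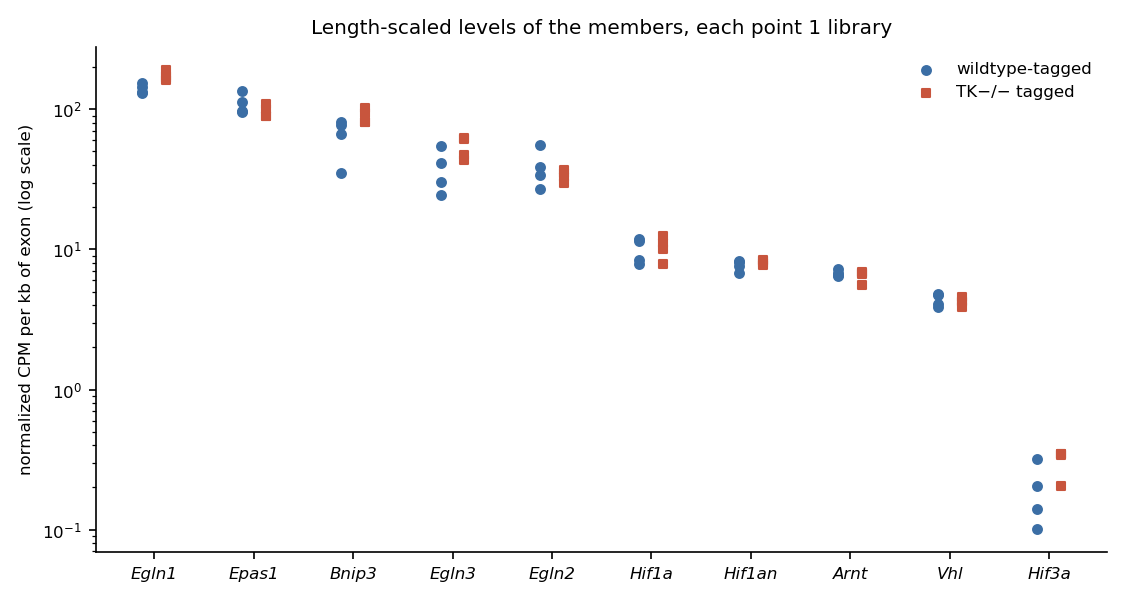
Normalised CPM per kb of exon (log scale) of the 10 genes in each library, ordered by their mean; circles are the 4 wildtype-tagged and squares the 4 TK-/- tagged libraries. The means run from 156 for *Egln1* to 0.250 for *Hif3a*, with a gap between *Egln2* and *Hif1a*.

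The comparison of the genotypes asked whether transcripts of oxygen sensing differ in the overloaded LV when VEGFR-1 cannot signal. None of the 10 genes passed the threshold. The highest mean differences were those of *Hif3a*, *Egln3*, *Bnip3* and *Egln1*, all higher in the TK-/- tagged LVs, and the other 6 genes lay within 0.21 of 0 on the log2 scale. With edgeR's quasi-likelihood test, 0 of 10 genes reached both an FDR under 0.1 and a 1.5-fold difference, against 1 of 13542 genes tested (0.00738%), which was *Flt1*. The likelihood ratio test and DESeq2 also called 0 of the 10. The FDR of the 10 genes lay between 0.468 and 0.951. At an unadjusted p under 0.05, 3 of 10 genes were higher and 0 lower, against 3.32% higher and 5.64% lower over all genes tested (8.96% in both directions). With total counts in place of the TMM scaling, or without TK-/- tagged replicate 2, 1 gene instead of 3 remained under this p. Over all genes tested, 7.0% were under it with total counts and 5.25% without that replicate. The log2 fold change was above 0 in 6 of 10 genes, against 49.7% of all genes tested, with a median of 0.07 over the 10 genes and 0.0 over all. In these bulk tissues, fewer cells of a type and less RNA per cell cannot be told apart.

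**Figure D2:**
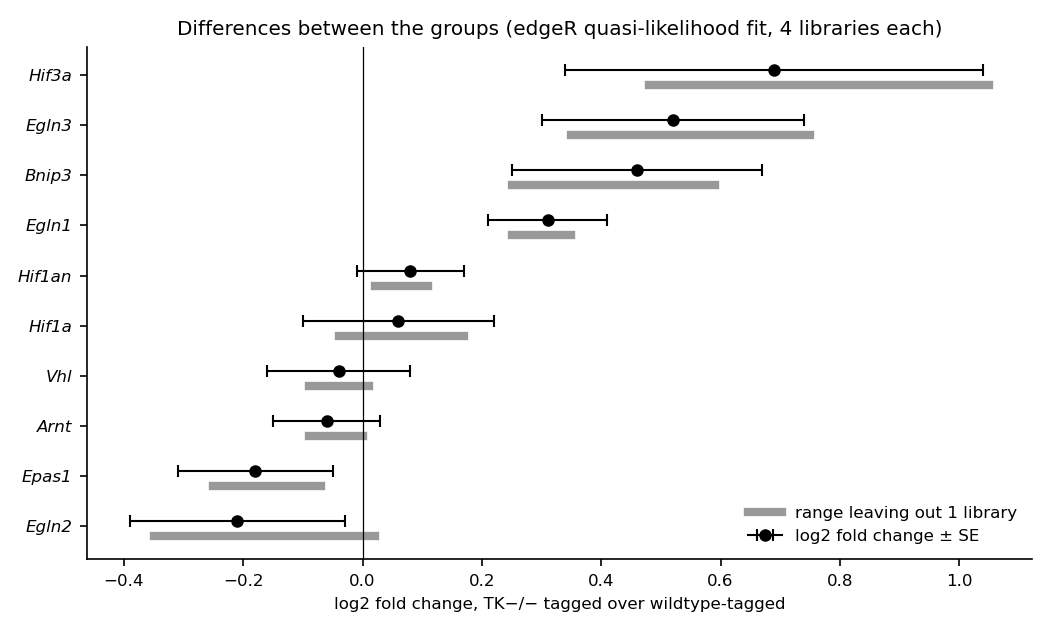
Log2 fold change of each gene, TK-/- tagged over wildtype-tagged (points, with the SE of the edgeR quasi-likelihood fit of 4 against 4 libraries), and the range of the value when each library is left out in turn (grey bars). *Hif3a*, *Egln3*, *Bnip3* and *Egln1* stay above 0 in all of these fits, with *Hif3a* at 0.69 and *Egln1* at 0.31.

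**Figure D3:**
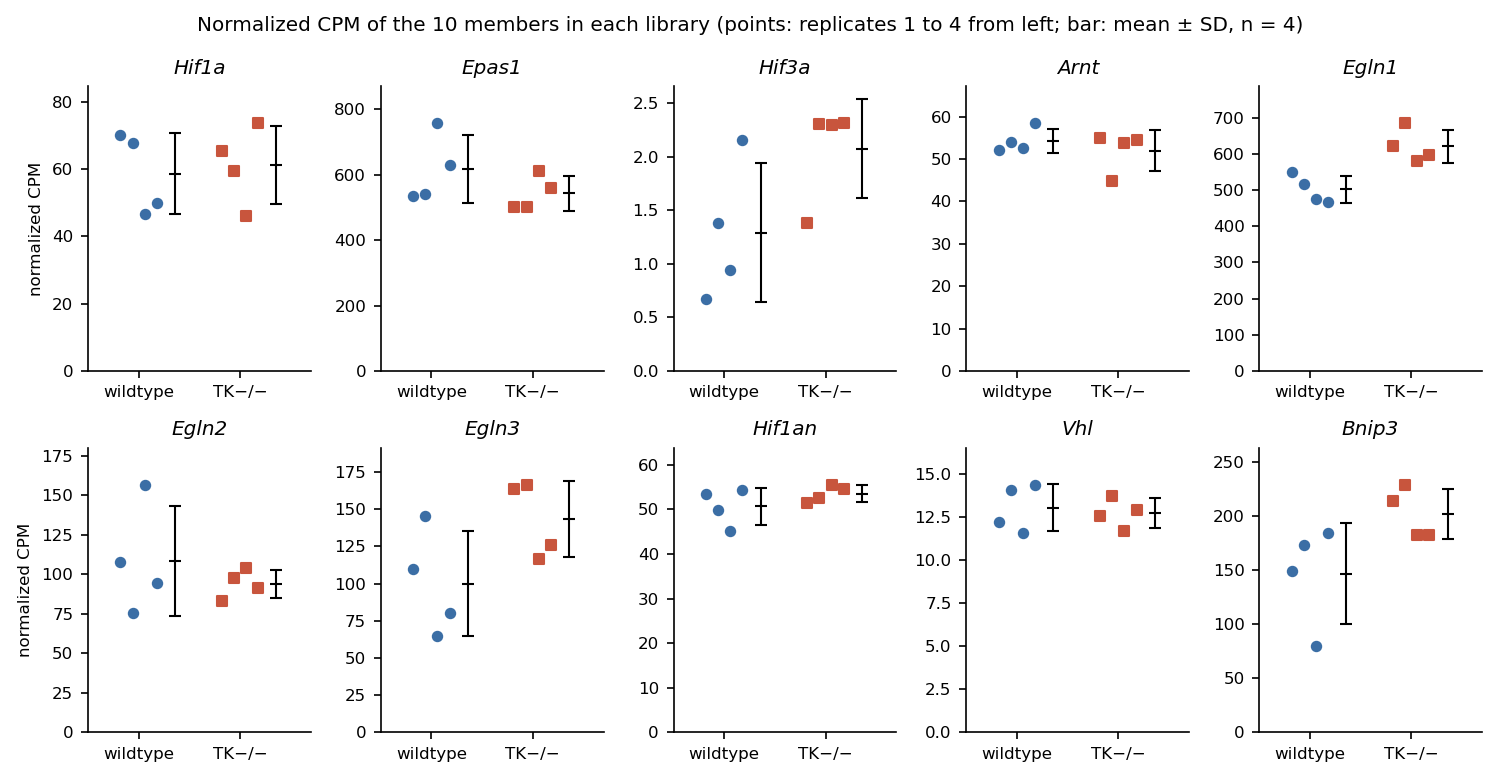
Normalised CPM of the 10 genes in the 4 wildtype-tagged (circles) and 4 TK-/- tagged libraries (squares), replicates 1 to 4 from left to right, with mean ± SD; each panel has its own axis starting at 0. *Egln1* is the gene in which every square is above every circle.

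Among the α subunits, *Epas1* (HIF-2α), known for its high expression in endothelium, was the main transcript in every library. *Epas1* (ENSMUSG00000024140, chromosome 17 of GRCm38, 86753700 to 86833410) had 536, 540.3, 758 and 631 normalised CPM in the wildtype-tagged replicates 1 to 4. In the TK-/- tagged replicates 1 to 4, it had 502, 500.1, 611 and 561. The groups overlapped, and wildtype-tagged replicate 3 was the highest of the 8 libraries. The means were 616 ± 104 and 543 ± 53.1 (SD, n = 4 each). The log2 fold change was −0.18 (SE 0.13). This difference did not pass the test (FDR = 0.719, edgeR's quasi-likelihood test), and without wildtype-tagged replicate 3 it was −0.07. The summed normalised CPM of 8 endothelial markers was 2174 to 2675 in the wildtype-tagged and 2052 to 2363 in the TK-/- tagged libraries. At an unadjusted p under 0.05, 3 of the 8 markers (*Pecam1*, *Cdh5* and *Tie1*) were lower and 0 higher. Over all genes tested, 5.64% were lower and 3.32% higher at such a p. The part of the endothelial markers in the level of *Epas1* was not tested.

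*Hif1a*, the α subunit found in most cell types, was about as high in both groups. *Hif1a* (ENSMUSG00000021109, chromosome 12, 73901375 to 73947530) had 70.1, 67.6, 46.7 and 49.9 normalised CPM in the wildtype-tagged and 65.3, 59.4, 46.1 and 73.6 in the TK-/- tagged replicates 1 to 4. High and low libraries were found in both groups, and the spread inside the groups (SD 11.97 and 11.6, n = 4 each) exceeded the distance between their means of 58.6 and 61.1. The log2 fold change was 0.06 (SE 0.16, FDR = 0.936, edgeR's quasi-likelihood test), and its sign depended on single libraries. On the opposite strand, *Gm15283* shares 330 exon bases with *Hif1a*. It had 76 counts in all 8 libraries together against 6166 of *Hif1a*.

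*Hif3a*, whose protein lacks part of the activating region of its relatives and can act as a brake on them, was close to the limit of detection. *Hif3a* (ENSMUSG00000004328, chromosome 7, 17031507 to 17062427) was covered by 9, 19, 14 and 27 counts in the wildtype-tagged and by 17, 26, 29 and 29 counts in the TK-/- tagged replicates 1 to 4. Counting error alone gives the lowest count an exact Poisson 95% interval from 4.12 to 17.1, and the highest one from 19.4 to 41.6. It reached a CPM of 1 in 2 wildtype-tagged and 4 TK-/- tagged libraries. The normalised CPM was 0.674, 1.38, 0.942 and 2.16 in the former and 1.38, 2.31, 2.29 and 2.31 in the latter. The highest wildtype-tagged library thus stood among the TK-/- tagged ones. The means of 1.29 ± 0.649 and 2.07 ± 0.461 (SD, n = 4 per group) gave the highest log2 fold change of the 10 genes, 0.69 (SE 0.35). It did not pass the test (FDR = 0.594, edgeR's quasi-likelihood test), nor did the exact 2-sided permutation test over the libraries (p = 0.0571), and it ranged from 0.48 without wildtype-tagged replicate 1 to 1.05 without wildtype-tagged replicate 4.

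Within each library, *Epas1* made up 88.7% to 94.4%, *Hif1a* 5.52% to 11.0% and *Hif3a* 0.0930% to 0.344% of the summed α subunit counts per exon length. These shares need no scaling between libraries. The mean share of *Epas1* was 91.3 ± 2.70% in the wildtype-tagged and 90.0 ± 2.06% in the TK-/- tagged libraries (SD, n = 4 each). The difference of −1.29 percentage points ranged from −2.30 to −0.27 with 1 library left out, the latter without wildtype-tagged replicate 3. None of the 6 shares computed for the α subunits and the prolyl hydroxylases passed the exact 2-sided permutation test between the groups (p = 0.0571 to 0.514, adjusted over the 6 shares 0.343 to 0.514). The smallest p that 4 libraries against 4 allow is 0.0286.

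*Arnt*, the β subunit shared by the α subunits, had overlapping groups. *Arnt* (ENSMUSG00000015522, chromosome 3, 95434388 to 95497240) lay between 52.0 and 58.4 normalised CPM in the wildtype-tagged libraries. In the TK-/- tagged replicates 1, 3 and 4, it lay between 53.7 and 54.9, and replicate 2 had 44.7. The log2 fold change was −0.06 (SE 0.09, FDR = 0.871, edgeR's quasi-likelihood test). Per kb of exon, both *Epas1* and *Hif1a* exceeded *Arnt* in every library, for *Epas1* with the lowest value of *Epas1* at 89.5 and the highest of *Arnt* at 7.30. *Arnt2*, the related β subunit, had a mean of 0.262 normalised CPM in the wildtype-tagged and 0.124 in the TK-/- tagged libraries and was not tested.

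*Egln1* encodes PHD2, the main oxygen sensor for HIF in most tissues, and was the one gene of the 10 whose groups did not overlap. *Egln1* (ENSMUSG00000031987, chromosome 8, 124908587 to 124949324) had 549, 518, 476 and 468 normalised CPM in the wildtype-tagged replicates 1 to 4. In the TK-/- tagged replicates 1 to 4, it had 623, 685, 580.2 and 598. Every TK-/- tagged library was above every wildtype-tagged library, from 5855 to 7334 counts in the latter and 7344 to 7721 in the former. The means were 503 ± 37.6 and 622 ± 46.0 (SD, n = 4 per group), a 1.24-fold difference. Among all genes tested, 4.98% had groups without overlap, 2.46% with the TK-/- tagged libraries higher and 2.53% with them lower. The exact 2-sided permutation test gave p = 0.0286, the smallest value possible. Groups of this size without overlap always give this value, so it adds nothing to the lack of overlap. The log2 fold change of 0.31 (SE 0.10) had an unadjusted p of 0.0132 and an FDR of 0.468 by edgeR's quasi-likelihood test, so *Egln1* was not called.

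The value of *Egln1* was stable, between 0.25 and 0.35 on the log2 scale over 16 alternatives of test, scaling, filter, block and libraries, with an FDR from 0.134 (DESeq2) to 0.941 (without TK-/- tagged replicate 2). Markers of several other cell types had lower means in the TK-/- tagged libraries, and none was called. The summed normalised CPM of 6 pericyte markers lay between 1124 and 1617 in the wildtype-tagged and between 830.3 and 1139 in the TK-/- tagged libraries. All 6 had counts. Of these, 5 (*Pdgfrb*, *Cspg4*, *Rgs5*, *Kcnj8* and *Notch3*) were lower at an unadjusted p under 0.05, with FDR values from 0.442 to 0.476. At such a p, 5.64% of all genes tested were lower and 3.32% higher. The groups of 3 of the 6, *Pdgfrb*, *Cspg4* and *Kcnj8*, did not overlap. Over all genes tested, 2.53% had such groups with the TK-/- tagged libraries lower. The cardiomyocyte marker sum lay between 69210 and 105900 and between 88670 and 109200, with 1 of 8 markers, *Tnni3*, higher at such a p. The sums lay between 1233 and 1989 and between 640.8 and 1637 for 6 fibroblast markers, between 108 and 145 and between 75.6 and 114 for 6 leukocyte markers, and between 309 and 766 and between 359 and 601 for 5 red blood cell markers. Of these, 1 leukocyte marker, *Csf1r*, was lower at such a p. The sums overlapped between the groups for each cell type, and their part in the difference of *Egln1* was not tested.

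*Egln3* encodes PHD3, the hydroxylase most strongly induced by hypoxia. *Egln3* (ENSMUSG00000035105, chromosome 12, 54178981 to 54203860) had 109.7, 145, 64.8 and 80.4 normalised CPM in the wildtype-tagged and 164, 166, 116 and 126 in the TK-/- tagged replicates 1 to 4. Wildtype-tagged replicate 2 overlapped with the other group, and wildtype-tagged replicate 3 was the lowest library. The means differed 1.43-fold, with SDs of 35.4 and 25.6 (n = 4 each), and the log2 fold change was 0.52 (SE 0.22). The FDR was 0.529 by edgeR's quasi-likelihood test (unadjusted p = 0.0367), and the exact 2-sided permutation test gave p = 0.114. With wildtype-tagged replicate 3 left out, the fit gave 0.35 on the log2 scale (unadjusted p = 0.0978), and without wildtype-tagged replicate 2 it was 0.75 (unadjusted p = 0.00182). This p was under 0.05 in 11 of 16 alternatives.

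*Egln2* encodes PHD1, which responds little to hypoxia. *Egln2* (ENSMUSG00000058709, chromosome 7, 27158658 to 27166802) had 108, 75.6, 157 and 94.4 normalised CPM in the wildtype-tagged replicates 1 to 4, so that these libraries alone spanned a range of 2.07-fold. The TK-/- tagged replicates 1 to 4 had 83.2, 97.8, 103.9 and 91.3, inside the range of the wildtype-tagged ones. The log2 fold change of −0.21 (SE 0.18, FDR = 0.767, edgeR's quasi-likelihood test) rested on wildtype-tagged replicate 3, without which it was 0.02. Of the prolyl hydroxylase transcripts per exon length, *Egln1* made up 62.3% to 67.5%, *Egln2* 11.2% to 26.3% and *Egln3* 11.4% to 24.2%. The share of *Egln1* varied least. The mean share of *Egln2* was 18.03 ± 5.99% in the wildtype-tagged and 13.0 ± 1.76% in the TK-/- tagged libraries (SD, n = 4 each; exact 2-sided permutation test, p = 0.143). Without wildtype-tagged replicate 3, the difference of −5.05 percentage points became −2.31.

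**Figure D4:**
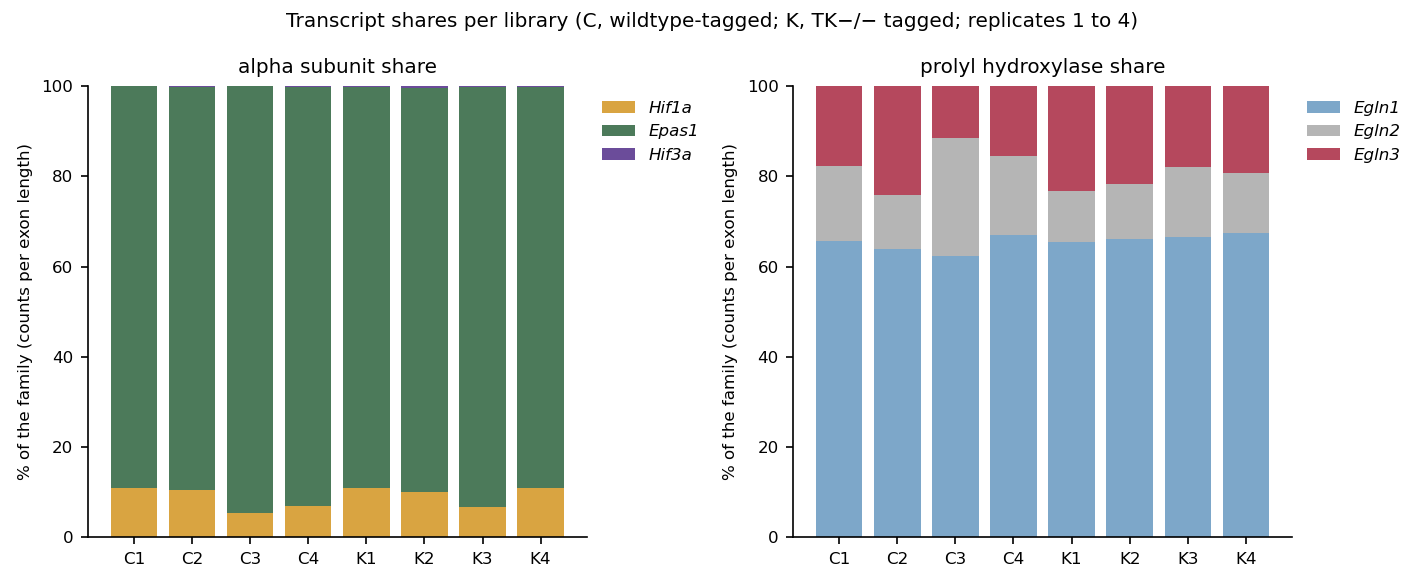
Share (%) of each gene in the counts per exon length of the α subunits (left) and of the prolyl hydroxylases (right), 1 bar per library, wildtype-tagged replicates (C1 to C4) and TK-/- tagged replicates (K1 to K4). *Epas1* makes up 88.7% to 94.4% on the left, and *Egln2* has its largest share, 26.3%, in C3 on the right.

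*Hif1an* and *Vhl* had the narrowest ranges of the 10 genes. *Hif1an* (ENSMUSG00000036450, chromosome 19, 44562850 to 44576274), the asparaginyl hydroxylase, lay between 45.1 and 54.3 normalised CPM in the wildtype-tagged and between 51.4 and 55.5 in the TK-/- tagged libraries. The difference was 0.08 on the log2 scale (SE 0.09, FDR = 0.825, edgeR's quasi-likelihood test). Without wildtype-tagged replicate 3, it was 0.02. *Vhl* (ENSMUSG00000033933, chromosome 6, 113623959 to 113631633), the part of the ubiquitin ligase that recognises hydroxylated α subunits, lay between 11.6 and 14.4 and between 11.7 and 13.8. Its log2 fold change was −0.04 (SE 0.12, FDR = 0.951). The highest library of *Hif1an* was 1.23 times and that of *Vhl* 1.24 times the lowest, against 2.87 times in *Bnip3* and 3.43 times in *Hif3a*.

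*Bnip3* encodes a protein of the outer mitochondrial membrane that marks mitochondria for autophagy and promotes cell death in the heart. *Bnip3* (ENSMUSG00000078566, chromosome 7, 138890836 to 138909519) had 149.9, 174, 79.97 and 185 normalised CPM in the wildtype-tagged and 215, 229, 183 and 183 in the TK-/- tagged replicates 1 to 4. Wildtype-tagged replicate 3 stood far below the other 7 libraries, and replicate 4 of that group was above the lowest TK-/- tagged library. The means of 147 ± 47.1 and 203 ± 23.2 (SD, n = 4 each) gave a log2 fold change of 0.46 (SE 0.21). The FDR was 0.556 by edgeR's quasi-likelihood test (unadjusted p = 0.0499), and the exact 2-sided permutation test gave p = 0.0857. With wildtype-tagged replicate 3 left out, the fit gave 0.25 on the log2 scale (unadjusted p = 0.0468), the largest shift that leaving out 1 library made in *Bnip3*. The unadjusted p was under 0.05 in 8 of 16 alternatives. *Gm45507*, which GENCODE M21 places on the opposite strand, shares 504 exon bases with *Bnip3* and was not analysed here. Whether the counting used strand is not given in the sources used here. *Bnip3l*, the closest relative of *Bnip3* and also a mitophagy receptor, had 55.8 ± 5.44 and 57.4 ± 2.86 normalised CPM (SD, n = 4 each), which is 0.04 on the log2 scale (SE 0.09).

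HIFs bind DNA at a short core, written ACGTG or GCGTG. The promoters of *Egln1*, *Egln3* and *Bnip3*, the 3 genes with an unadjusted p under 0.05, are shown with matches to either core, on either strand, in capitals. Overlapping matches merge into 1 run of capitals, and bases that GENCODE M21 counts as exon are left out at the 3′ end. The sequences are from RefSeq (GRCm38.p6), 5′ to 3′ on the minus strand on which each gene is transcribed, at chr8:124949325-124949504 (*Egln1*, 180 bases), chr12:54203875-54204124 (*Egln3*, 250 bases) and chr7:138909520-138909756 (*Bnip3*, 237 bases).
Egln1: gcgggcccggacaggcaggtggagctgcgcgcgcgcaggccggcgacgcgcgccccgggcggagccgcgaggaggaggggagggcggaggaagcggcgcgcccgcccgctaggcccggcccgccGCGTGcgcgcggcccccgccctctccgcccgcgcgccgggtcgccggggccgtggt
Egln3: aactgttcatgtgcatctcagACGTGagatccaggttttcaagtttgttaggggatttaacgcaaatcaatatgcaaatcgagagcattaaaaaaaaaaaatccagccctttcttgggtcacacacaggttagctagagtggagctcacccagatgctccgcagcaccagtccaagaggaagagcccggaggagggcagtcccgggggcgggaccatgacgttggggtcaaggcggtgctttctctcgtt
Bnip3: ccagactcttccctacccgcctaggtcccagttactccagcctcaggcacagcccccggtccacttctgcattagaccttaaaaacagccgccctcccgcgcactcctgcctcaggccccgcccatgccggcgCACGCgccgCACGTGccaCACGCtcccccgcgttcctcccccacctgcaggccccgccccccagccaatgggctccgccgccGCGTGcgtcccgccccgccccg

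In the full 250 bases before the RefSeq start, the *Bnip3* promoter held 5 matches, the *Egln1* promoter 2 and the *Egln3* promoter 1. Of all 32851 promoters of the table, 38.6% held at least 1 match in these 250 bases, 16.7% at least 2 and 2.58% at least 4. A promoter was found for 9 of the 10 genes, with a pair of starts for *Egln2*. Of these 10 promoters, 8 held a match, and those of *Hif1an* and *Vhl* held none. The *Egln1* promoter consists of G and C in 86.0% of its bases, the *Bnip3* promoter in 72.4% and the *Egln3* promoter in 50.8%. A match is a run of letters in this window and does not show that a HIF binds there.

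Across the 8 libraries, *Epas1* and *Egln3* moved in opposite directions. The library with the most *Epas1*, wildtype-tagged replicate 3, had the least *Egln3*, and the TK-/- tagged replicates 1 and 2, with the least *Epas1*, had the most *Egln3*. Pearson's r of the log2 normalised CPM was −0.93 (exact permutation test, p = 0.000843, adjusted over the 45 pairs of the 10 genes p = 0.0379), and Spearman's rho was −0.86 (exact permutation test, p = 0.0107, adjusted p = 0.346). With the libraries farthest from the median of *Epas1* left out (wildtype-tagged replicates 3 and 4), r was −0.75 over 6 libraries. Each group has too few libraries for a value of its own. Taken as deviations from the group means, r was also −0.93. The libraries share the scaling to library size, and the relation was seen before it was tested.

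No other pair passed the adjustment, and 9 of 45 pairs had an unadjusted exact permutation p under 0.05 for r. *Egln3* also varied with *Egln1* (r = 0.84, rho = 0.83, permutation p = 0.0101 and 0.0154, adjusted p = 0.169 and 0.346) and with *Bnip3* (r = 0.81, rho = 0.69, permutation p = 0.0113 and 0.0694, adjusted p = 0.169 and 0.52). For *Epas1* and *Bnip3*, r was −0.83 and rho −0.55 (permutation p = 0.0257 and 0.171, adjusted p = 0.193 and 0.641), and r was −0.49 without the libraries farthest from the median of *Epas1*. Without wildtype-tagged replicate 3 alone, r was −0.39 for *Epas1* and *Bnip3* and −0.87 for *Epas1* and *Egln3*. Without the same library, r was 0.56 for *Egln3* and *Bnip3* and 0.80 for *Egln3* and *Egln1*. The relation of *Epas1* and *Bnip3* thus rested on this library.

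**Figure D5:**
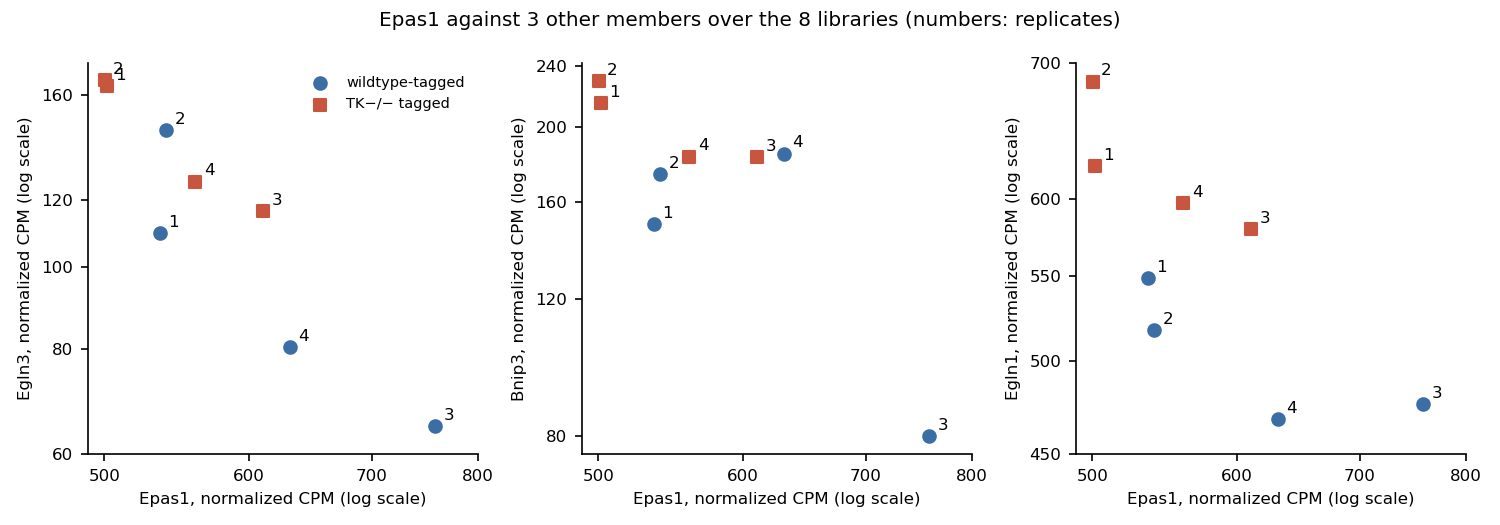
Normalised CPM (log scales) of *Egln3*, *Bnip3* and *Egln1* against *Epas1* in the 8 libraries, circles wildtype-tagged and squares TK-/- tagged, with replicate numbers. Wildtype-tagged replicate 3 is at the right end with 758 for *Epas1*, and it has the lowest *Egln3* (64.8) and *Bnip3* (79.97).

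A list of 56 textbook HIF targets was compared in the same fit, and 52 of them passed the filter on low counts. *Epo*, the hormone of red blood cell formation, had 0 counts in each library, and *Aldoc*, *Car9* and *Car12* were under the filter. At an unadjusted p under 0.05, 1 target was higher and 3 were lower, together 7.69% of those tested against 8.96% of all genes tested. The list leaves out *Egln1*, *Egln3* and *Bnip3*, which are also HIF targets. Each of them was higher at such a p, so the share holds only for the listed targets. The median log2 fold change was 0.04, with 29 values above and 23 below 0. The one target called was *Flt1* (log2 fold change 1.19, FDR = 0.00808, edgeR's quasi-likelihood test), which is also the targeted gene. In 6 of 16 alternatives, 7 to 8 targets were under this p (12.7% to 15.4% of those tested), against 7.16% to 9.94% of all genes in the same fits.

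The 3 targets that were lower at such a p were *Cxcr4*, *Nos2* and *Cox4i2*, and none was called. *Cxcr4*, a chemokine receptor, had 12.1, 15.8, 21.6 and 19.4 normalised CPM in the wildtype-tagged and 12.4, 10.5, 8.69 and 7.25 in the TK-/- tagged replicates 1 to 4, so the groups overlapped. *Nos2*, the inducible nitric oxide synthase, had 15.9, 27.1, 22.4 and 17.2 in the former and 15.4, 11.4, 12.2 and 15.6 in the latter. *Cox4i2*, the subunit of cytochrome c oxidase used at low oxygen, had 12.4, 13.8, 14.4 and 11.99 against 10.6, 8.35, 11.0 and 10.9. The groups of *Nos2* and *Cox4i2* did not overlap. These were 2 of the 52 targets tested, against 2.53% of all genes tested with the TK-/- tagged libraries lower. The log2 fold changes of *Cxcr4*, *Nos2* and *Cox4i2* were −0.83, −0.60 and −0.36, with FDR values of 0.442, 0.453 and 0.486 by edgeR's quasi-likelihood test.

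No target of glycolysis passed the test. Of 17 genes, 16 were tested. Of these, 0 had an unadjusted p under 0.05 by edgeR's quasi-likelihood test, against 8.96% of all genes tested. Their log2 fold changes lay between −0.23 and 0.15. *Aldoa*, the muscle aldolase, had a mean of 3809 normalised CPM in the wildtype-tagged and 4240 in the TK-/- tagged libraries, and *Ldha*, which makes lactate, had 979 and 922. *Vegfa*, a ligand of VEGFR-1 and a HIF target, had 561, 496, 567 and 545 normalised CPM in the wildtype-tagged and 698, 615, 668 and 563 in the TK-/- tagged replicates 1 to 4. The lowest TK-/- tagged library lay just below the highest wildtype-tagged one. Its log2 fold change was 0.23 (SE 0.11, FDR = 0.559). *Angptl4*, a lipase inhibitor, showed how 1 library can set a mean: TK-/- tagged replicate 2 had 50.1 and the other 7 libraries 6.70 to 17.3 normalised CPM.

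Of 24 further genes of the machinery, 23 were tested. Of these, 0 had an unadjusted p under 0.05 by edgeR's quasi-likelihood test, against 8.96% of all genes tested. The partners of VHL in the ubiquitin ligase, *Tceb1* (elongin C), *Tceb2* (elongin B), *Cul2* and *Rbx1*, had log2 fold changes from 0.05 to 0.17. Coactivators and partners of the HIFs, such as *Ep300* (0.11) and *Crebbp* (−0.14), lay between −0.30 and 0.11, and 6 mitophagy genes between −0.17 and 0.23. The lowest FDR in this list was 0.612, and its median log2 fold change was 0.02.

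Genes with the most similar profile over the 8 libraries were ranked by Pearson's r of log2 normalised CPM among all genes tested, as a description. The profile of *Egln2* was closest to those of *Hras* (r = 0.995) and *Psmd13* (r = 0.994). *Bnip3* was closest to *Ccdc53* (r = 0.989) and *Nol7* (r = 0.987), and *Egln3* to *Cenpq* (r = 0.979) and *D3Ertd254e* (r = 0.977). *Hif1a* was closest to *Prox2* (r = 0.975) and *Ptger4* (r = 0.972), *Epas1* to *Tpr* (r = 0.969) and *Eif2s3x* (r = 0.967), and *Egln1* to *Spag1* (r = 0.969) and *Psmg1* (r = 0.964). *Hif3a* was closest to *Ccdc14* (r = 0.970) and *Fam122b* (r = 0.961), *Arnt* to *Irf2bp2* (r = 0.960) and *Syn2* (r = 0.955), *Hif1an* to *Rtf1* and *Phf20l1* (r = 0.968 each), and *Vhl* to *Tlr7* (r = 0.966) and *Lrp6* (r = 0.954). The closest of all genes tested has a high r over 8 libraries for each of these genes, and none of the 10 genes had another of the 10 among its closest pair.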

How the data were processed

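Per the study's methods and the labels, the authors trimmed paired-end reads (Trim Galore 0.4.4), aligned them to GRCm38 (STAR 2.5.4b) and deposited raw featureCounts counts for GENCODE M16 genes, not normalised. The featureCounts settings for strand and for multimapping reads are not given in the sources used here. The labels name depletion of ribosomal RNA, the methods poly-A selection. The library names mention cardiomyocytes, the source is LV tissue.

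The 13542 genes that passed the filter were scaled by TMM and tested with edgeR 4.0.16 in R 4.3.3 (quasi-likelihood test, 8 libraries, no covariates). P-values were adjusted by Benjamini-Hochberg across these genes (FDR). The threshold was an FDR under 0.1 with a 1.5-fold difference. Alternatives were edgeR's likelihood ratio test (the study's own), DESeq2 1.42.0, RLE factors, total counts, no filter, filterByExpr, robust dispersions, the replicate block and each library left out. Log2 normalised CPM used a prior count of 2. The test was checked on simulated counts. Coordinates and exon lengths came from GENCODE M21 (GRCm38). Named genes were the 10 members, *Flt1*, listed genes with an unadjusted p under 0.05 and, for each member, the 2 genes of closest profile. *Vegfa*, *Angptl4*, *Bnip3l*, *Arnt2*, *Aldoa*, *Ldha* and the machinery genes were named after their values were seen. Members and lists were chosen with earlier results of these data known.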

Additional observations from a re-analysis of the deposited data

Results flagged for a closer look

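The spread inside each group of 4 libraries was checked for a single library far from the rest, in 32 groups of values (10 genes and 6 transcript shares in both genotypes), and 2 stood out. *Hif3a* had 1.38 normalised CPM in TK-/- tagged replicate 1, below the other libraries of that group at 2.29 to 2.31. The gap was 0.977 of the range of the group, above Dixon's 95% critical value for 4 samples. The count behind it was 17. *Arnt* had 44.7 normalised CPM in TK-/- tagged replicate 2, with the others at 53.7 to 54.9 and a gap of 0.881 of the range. By chance, about 1 in 20 groups would stand out in this way.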

How the results depend on the processing

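Over 16 alternatives, 0 of the 10 genes were called in each fit, and *Epas1*, *Hif3a*, *Egln1*, *Egln3*, *Hif1an* and *Bnip3* kept their direction. The 6 shares kept theirs over 10 alternatives (counts without division by exon length, the replicate block and each library left out). With 1 library left out, 4 genes changed sign. Their log2 fold changes ran from −0.04 to 0.17 (*Hif1a*), −0.09 to 0.0 (*Arnt*), −0.35 to 0.02 (*Egln2*) and −0.09 to 0.01 (*Vhl*). The number of genes called among all genes tested was 53 with the likelihood ratio test, 32 with DESeq2, 23 with no filter on low counts and 1 to 3 with one library left out. The number of the 10 genes with an unadjusted p under 0.05 was 1 with total counts and 1 to 3 with one library left out. HIF targets under this p numbered 7 with DESeq2, 7 with no filter, 7 with the replicate block and 4 to 8 with one library left out, and machinery genes 0 to 2. The causes were not tested. Libraries numbered 3 deviated together (r = 0.343), whereas r was −0.055 to 0.029 for the other 3 numbers, so the numbers were not taken to pair the samples. The replicate block called 1 gene and left 4 of the 10 genes under an unadjusted p of 0.05, against 9.19% of all genes tested. Depth limits *Hif3a* most, with 9 to 29 counts per library.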
